A study of Mus musculus with 11 samples.

Results

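A set of 9 genes of cytotoxic and intraepithelial T lymphocytes, Gzma, Gzmb, Nkg7, Ccl5, Cd8a, Cd3e, Cd3g, Cd7 and Itgae, was followed in RNA from mouse small intestine. They are 9 of 24294 gene symbols in the table of expression values, and were taken by symbol. The table holds 11 libraries in 3 groups, 3 labelled ND, 4 labelled HFD and 4 labelled HLJDD, the initials of the herbal Huang Lian Jiedu Decoction named in the series title, which concerns obese mice. The labels give no strain, age, sex, dose or stretch of intestine, do not spell out ND and HFD, and do not say which diet the HLJDD mice ate. They also do not say that the libraries come from separate animals, so each p-value reflects the spread from library to library, part of which may be technical.

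The gut epithelium is populated by T lymphocytes that sit between enterocytes, many of them carrying CD8 as a pair of alpha chains, with either class of T cell receptor. They are held there by the integrin of which Itgae encodes the alpha E chain, which binds E-cadherin, and are maintained by epithelial interleukin 15 and interleukin 7. They are known for a resting cytotoxic state, with stored granzymes (the serine proteases that granules release into a target cell) and abundant transcripts of the chemokine gene Ccl5.

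Levels are given as FPKM, reads scaled to gene length and to the library's total, so that levels of different genes can be set side by side. By mean over the 11 libraries the order was Ccl5 at 10.8 FPKM, Gzma at 8.09, Cd3g at 2.99, Cd7 at 2.74, Gzmb at 2.16, Nkg7 at 1.18, Cd8a at 0.898, Cd3e at 0.521 and Itgae at 0.440. Neighbours in that order overlapped in their ranges over the libraries. These genes made up a small share of the RNA of a whole-tissue sample. Reads behind a single value ran from 10 for Cd3e in HLJDD replicate 2 to 402 for Gzma in ND replicate 2. The 10 reads have an exact Poisson 95% interval of 4.80 to 18.4 and the 402 reads one of 364 to 443, which cover counting error only.

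Other genes of the same cells were unevenly represented. Cd3d, the third signalling chain that pairs with the products of Cd3e and Cd3g, ran from 0.286 to 1.29 FPKM. Its mean was 0.585 in ND, 0.940 in HFD and 0.707 in HLJDD, with groups that overlapped in every pairing. Its mean was thus lowest in ND, where those of Cd3e and Cd3g were highest. Cd8b1, the beta chain of CD8, rested on 0 to 24 reads a library and reached 0.480 FPKM in HFD replicate 2, below Cd8a in all 11 libraries. Prf1, which encodes the pore-forming protein of cytotoxic granules, rested on 1 to 7 reads a library and never exceeded 0.0777 FPKM. Cd4, the co-receptor of helper T cells, was lowest in ND. It ran from 0.132 to 0.319 FPKM in ND, from 0.387 to 1.43 in HFD and from 0.431 to 0.902 in HLJDD, and was not tested. No values of receptor constant segments are reported here, so the class of T cell receptor cannot be given. The genes are therefore described below by name and not as a count of cells: in whole tissue, fewer cells of a type and less RNA per cell cannot be told apart.

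The stretches of DNA just upstream of 4 of the genes are printed here. Gzma, Gzmb and Nkg7 are shown as the granule genes of the set, and Cd3g as a receptor chain they are later set against. Sequences are from RefSeq on GRCm38.p6, the assembly of mm10, and are the 150 bases before the start site, read 5′ to 3′ on the strand of the gene. RefSeq's promoter table held 6 of the 9 genes. Capitals mark the letters TGTGGT (the core bound by RUNX factors) or AGGAAG (a core of ETS factors) on either strand. The letters were chosen after the sequences had been seen. Gzma lies on chromosome 13 at 113093824 to 113100981, and its upstream window is chr13:113100982-113101131 on the minus strand. Gzmb lies on chromosome 14 at 56258836 to 56262334, with the window chr14:56262335-56262484 on the minus strand. Nkg7 lies on chromosome 7 at 43437138 to 43438246, with the window chr7:43436988-43437137 on the plus strand. Cd3g lies on chromosome 9 at 44969572 to 44980431, with the window chr9:44980432-44980581 on the minus strand.
Gzma: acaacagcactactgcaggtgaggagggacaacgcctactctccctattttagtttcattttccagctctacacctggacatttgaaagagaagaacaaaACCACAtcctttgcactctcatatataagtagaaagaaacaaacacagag
Gzmb: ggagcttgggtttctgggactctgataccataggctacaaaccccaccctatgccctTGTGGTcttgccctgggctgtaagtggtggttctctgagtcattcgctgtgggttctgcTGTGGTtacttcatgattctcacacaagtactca
Nkg7: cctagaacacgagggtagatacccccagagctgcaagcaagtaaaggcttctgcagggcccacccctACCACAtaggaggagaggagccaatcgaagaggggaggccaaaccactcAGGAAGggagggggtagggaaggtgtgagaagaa
Cd3g: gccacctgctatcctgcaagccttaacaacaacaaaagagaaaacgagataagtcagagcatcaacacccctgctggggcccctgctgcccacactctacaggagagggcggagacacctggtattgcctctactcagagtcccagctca

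The RUNX letters stood 1 time upstream of Gzma, at 50 to 45 bases before the start, 2 times upstream of Gzmb, at 93 to 88 and at 34 to 29 bases, and 1 time upstream of Nkg7, at 83 to 78 bases. The Nkg7 window also held the ETS letters at 34 to 29 bases. Neither set of letters was found in the Cd3g window or in that of Cd8a, and Cd3e had the ETS letters at 17 to 12 bases. Of 32851 windows of the same length in the table, 8.4% held the RUNX letters and 19.7% the ETS letters. An E-box (CAGCTG), found in 8.39% of the windows, a TATA box (TATAAA), found in 7.57%, and a core of GATA factors (AGATAA), found in 5.65%, were also searched on both strands. Among the 6 genes they matched only in the Cd3g window, where the GATA letters lie at 104 to 99 bases. No matches overlapped. A match of letters is a description of the sequence and not a binding site.

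The granule proteases came first. Gzma encodes granzyme A, a tryptase that is stored in cytotoxic granules. Its level was 10.9, 12.5 and 10.3 FPKM in ND replicates 1 to 3, 5.63, 8.10, 9.87 and 10.1 in HFD replicates 1 to 4, and 5.11, 5.17, 9.57 and 1.72 in HLJDD replicates 1 to 4. Every ND library was above every HFD and every HLJDD library. HLJDD replicate 4 was the lowest of all 11 libraries, and HLJDD replicate 3 lay within the HFD range.

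Gzmb encodes granzyme B, which cleaves after aspartate and triggers apoptosis of the target cell. It measured 2.83, 2.62 and 1.53 FPKM in ND replicates 1 to 3, 3.07, 4.31, 2.65 and 2.08 in the HFD libraries, and 1.21, 1.71, 1.34 and 0.412 in the HLJDD libraries, in order of replicate. The HFD and HLJDD libraries did not overlap, whereas the ND libraries overlapped both. Gzmb lies in a cluster of related granzyme genes, so reads could have been shared with a near-identical neighbour.

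Nkg7, which encodes a membrane protein of cytotoxic granules, stood at 1.78, 1.68 and 1.22 FPKM in ND, at 1.27, 1.46, 1.32 and 1.35 in HFD, and at 0.863, 0.613, 0.746 and 0.666 in HLJDD. All 4 HLJDD libraries were below the other 7. The HFD libraries lay within the ND range. These values rested on 37 to 51 reads in ND, 33 to 41 in HFD and 15 to 26 in HLJDD.

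Ccl5, on chromosome 11 at 83525778 to 83530518, encodes the chemokine RANTES, which recruits T cells and other leukocytes. Its level was 14.5, 14.5 and 10.5 FPKM in ND, 16.1, 11.5, 11.9 and 13.0 in HFD, and 5.27, 11.6, 6.29 and 3.56 in HLJDD. HLJDD replicates 1, 3 and 4 were below every ND and HFD library. HLJDD replicate 2, one of 2 libraries with a high share of mitochondrial transcripts, lay within both other groups.

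Of the receptor chains, Cd3g (CD3 gamma) was the best measured. Cd3g was at 4.41, 3.87 and 2.82 FPKM in ND, at 2.98, 4.52, 2.70 and 2.23 in HFD, and at 2.21, 2.14, 3.45 and 1.59 in HLJDD. Its groups overlapped in every pairing. Cd3e (CD3 epsilon), on chromosome 9 at 44998735 to 45009663, was at 0.973, 0.684 and 0.479 FPKM in ND, at 0.290, 0.957, 0.484 and 0.371 in HFD, and at 0.356, 0.219, 0.417 and 0.500 in HLJDD. It never reached 1 FPKM and its groups also overlapped in every pairing.

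Cd8a (CD8 alpha), on chromosome 6 at 71373427 to 71379171, ran from 0.825 to 1.30 FPKM in ND, from 0.732 to 1.12 in HFD and from 0.519 to 0.905 in HLJDD. Itgae, on chromosome 11 at 73090505 to 73147449, ran from 0.324 to 0.717 FPKM in ND, from 0.355 to 0.606 in HFD and from 0.180 to 0.414 in HLJDD. Cd7, an immunoglobulin-family protein of the T cell and natural killer cell surface, lies on the same chromosome at 121036747 to 121039478. Cd7 was at 4.28, 4.35 and 2.97 FPKM in ND, at 3.04, 2.16, 2.52 and 2.76 in HFD, and at 1.84, 2.49, 2.78 and 0.988 in HLJDD. All ND libraries were above all HLJDD libraries for Cd7, whereas Cd8a and Itgae overlapped in every pairing.

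**Figure D1:**
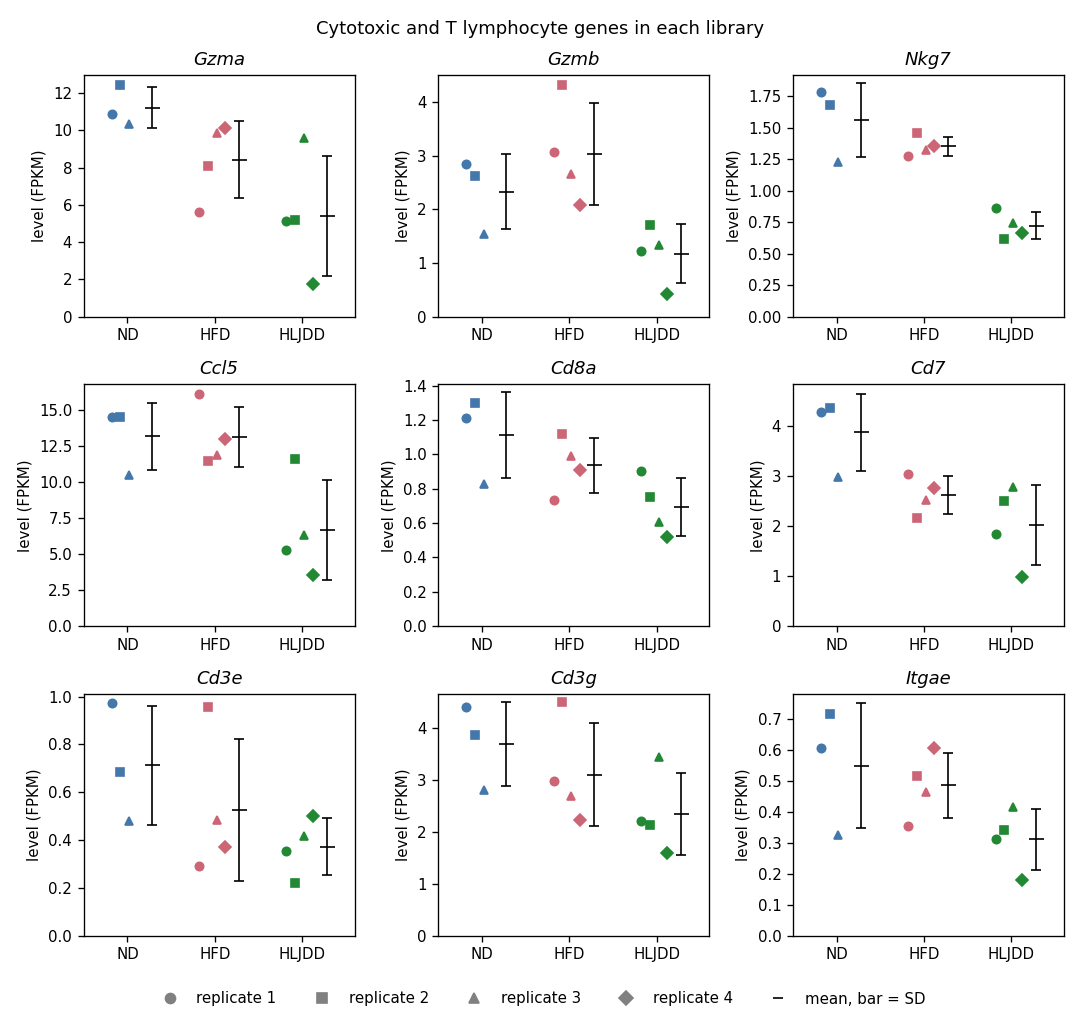
Level of each of the 9 genes (vertical axis, FPKM, starting at 0) in every library of ND, HFD and HLJDD. Symbols are replicates, and the dash and bar are the group mean and SD. The 4 HLJDD libraries of Nkg7 lie between 0.613 and 0.863 FPKM, below all other libraries.

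The order of the libraries was shared by the genes in part. ND replicate 3 was the lowest ND library for 9 of 9 genes. HLJDD replicate 4 was the lowest HLJDD library for 7 of 9, and for the same 7 the lowest of all 11. HFD replicate 1 was the lowest HFD library for 5 genes and the highest for 2, and HFD replicate 2 the highest for 5 and the lowest for 2. The highest HLJDD library was replicate 3 for 4 genes, replicates 1 and 2 for 2 each and replicate 4 for 1. HFD replicate 1 was lowest for 1 gene after median-ratio scaling, which brings the libraries to a common median over the kept genes. Summed over the 9 genes, the levels were 41.5, 42.2 and 31.0 FPKM in ND, 33.5, 34.6, 32.9 and 33.4 in HFD, and 18.1, 25.1, 25.6 and 10.1 in HLJDD. The HLJDD sums of unscaled FPKM lay below all others. Ccl5 and Gzma, the most abundant of the genes, weigh most in these sums, and sums after median-ratio scaling were not compared. After that scaling Ccl5 in HLJDD replicate 2 was 15.3, above the highest ND value of 13.0. The HFD sums were much closer to each other than those of the other 2 groups. In HFD replicate 1, however, Gzma was the lowest of its group (5.63 FPKM) and Ccl5 the highest (16.1 FPKM). Each gene shared library depth and composition with the rest, and the Pearson correlation of a gene with the mean of the 9 over the 11 libraries ran from 0.641 for Cd3e to 0.912 for Nkg7.

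Facts of the libraries that touch these values were as follows. The 13 mitochondrial protein-coding transcripts held 40.7% of the reads of HLJDD replicate 2 and 32.4% of those of HFD replicate 1, against 10.4% to 19.3% elsewhere. B cell genes (10 markers, none at 0) summed to 8.43 to 9.31 FPKM in ND, 13.2 to 266 in HFD and 12.4 to 145 in HLJDD, with HFD replicate 4 and HLJDD replicate 2 at the bottom of their groups. Smooth muscle genes (6 markers, none at 0) summed to 433 to 611 FPKM in ND, 147 to 582 in HFD and 163 to 437 in HLJDD. Epithelial genes (8 markers) summed to 7319 to 8233, 6797 to 8493 and 6223 to 8276 FPKM. Of 7 mucosal mast cell markers, 6 were under 0.2 FPKM in every library. Genes of the distal small intestine (7 markers) summed to 1479 to 12038 FPKM in ND against 314 to 473 in HFD and 265 to 483 in HLJDD, and those of the proximal small intestine (7 markers) to 2177 to 10844 against 36640 to 50079 and 30913 to 52422. ND therefore differs from both other groups in markers of gut region, and for the comparisons with ND the region and the group cannot be told apart. ND replicate 3, the lowest ND library for 9 of 9 genes, had the lowest distal sum of ND (1479 against 12038 and 8522 FPKM). It also had the highest proximal sum of ND (10844 against 2177 and 5457). A link between region and the 9 genes within ND was not tested. The part of these other cell types in the results was not tested beyond the fits named below.

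**Figure D2:**
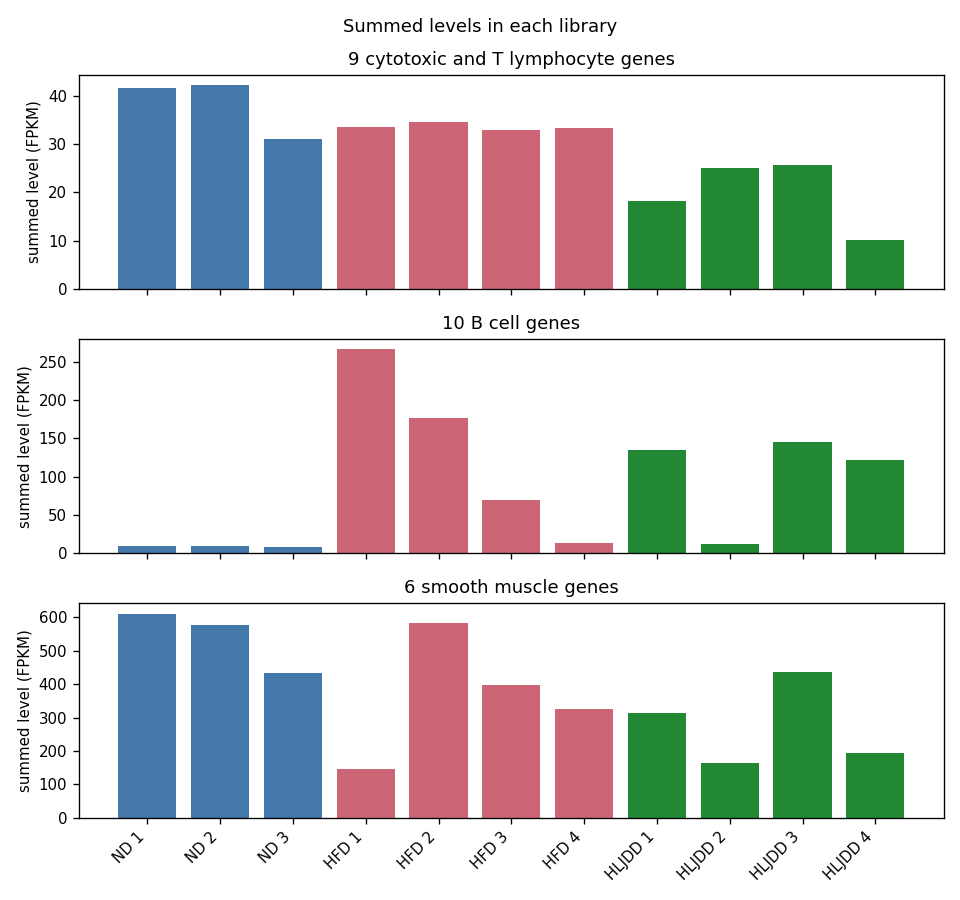
Summed levels (vertical axes, FPKM, starting at 0) in each of the 11 libraries, coloured by group. The sum of the 9 genes is 31.0 FPKM or more in every ND and HFD library and 25.6 or less in every HLJDD library. The values are as deposited, without median-ratio scaling.

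The comparison of HFD with ND showed no gene of the 9 past the threshold. Changes were tested with limma on log2(FPKM + 1), which compresses changes of genes near 1 FPKM, over the 10764 genes that reached 1 FPKM in 3 or more libraries. Of the 9 genes, 7 were tested. Cd3e and Itgae did not reach 1 FPKM in any library, and Cd8a entered through exactly 3 libraries, ND replicates 1 and 2 and HFD replicate 2. Of the 7, 0 passed an adjusted p (Benjamini-Hochberg) of 0.05, where 16.6% of all tested genes did (11.5% lower and 5.06% higher). None had an unadjusted p under 0.05, as 36.7% of the tested genes did.

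Ccl5 had a mean of 13.1 ± 2.10 FPKM (SD, n = 4) in HFD and 13.2 ± 2.33 (n = 3) in ND. Its log2 difference was -0.003 with a 95% interval from -0.60 to 0.60 (limma adjusted p = 0.994), which does not show that the levels are alike. Cd7 had the largest difference, with a mean 32.2% lower in HFD (log2 -0.42, SE 0.21, limma adjusted p = 0.161). Gzma was 24.9% lower by its means, and its 4 HFD libraries lay below the 3 ND libraries (log2 -0.40, SE 0.35, limma adjusted p = 0.406). Of all tested genes, 32.9% were separated in that direction. Gzmb alone had a higher mean in HFD, by 30.1% (log2 0.27, SE 0.24, limma adjusted p = 0.420).

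The median log2 difference of the 7 genes was -0.12, beside -0.20 over all tested genes, and 6 of 7 were below 0, where 70.7% of all tested genes were. After median-ratio scaling it was -0.001, no gene of the 9 had separate groups (19.4% of tested genes were separate in the lower direction), and the differences of Nkg7 and Ccl5 changed sign to 0.03 and 0.23, neither of them called.

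The comparison of HLJDD with HFD addresses what the decoction group differs in from the HFD group. Gzmb, Nkg7 and Ccl5 had the largest differences relative to their spread, with means lower in HLJDD by 46.6% for Nkg7, 49.0% for Ccl5 and 61.4% for Gzmb. No gene of the whole table passed the adjusted threshold, so none of the 7 did (percent called 0). At an unadjusted p under 0.05 there were 3 of the 7, Gzmb, Ccl5 and Nkg7, and 186 of 10764 genes (1.73%).

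Gzmb averaged 1.17 ± 0.548 FPKM (n = 4) in HLJDD and 3.03 ± 0.948 (n = 4) in HFD, a difference larger than either SD. The log2 difference was -0.90 (SE 0.23, 95% interval -1.39 to -0.41, limma adjusted p = 0.999). Ccl5 averaged 6.69 ± 3.47 against 13.1 ± 2.10 FPKM, with a log2 difference of -0.97 (SE 0.26, limma adjusted p = 0.999). Nkg7 averaged 0.722 ± 0.108 against 1.35 ± 0.0778 FPKM, with a log2 difference of -0.45 (SE 0.11, limma adjusted p = 0.999). For Nkg7 the gap between the groups exceeded the whole range of either group, but those ranges are not a measure of counting error. The Poisson 95% intervals of the nearest libraries overlapped in reads, at 22.7 to 46.3 for HFD replicate 1 and 17.0 to 38.1 for HLJDD replicate 1.

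All 9 means were lower in HLJDD than in HFD, and all 7 log2 differences were below 0, as were 34.1% of those over all tested genes. For Gzma, Cd3g, Cd7 and Cd8a the log2 differences were -0.69, -0.29, -0.30 and -0.19, each with a 95% interval that included 0. The groups did not overlap for Gzmb and Nkg7, a separation that 0.548% of all tested genes had in the lower direction. After median-ratio scaling only Nkg7 of the 7 tested genes was separated, as 1.66% of all tested genes were in the lower direction. Itgae, which was not among the tested genes, was also separated after scaling. The median of the 7 differences was -0.45, beside 0.06 over all tested genes, and -0.50 after scaling. The 6 smooth muscle genes had a median of -0.36 here, and their part in the difference was not tested beyond the fit with their mean as a term. The smallest adjusted p over all alternative fits was 0.105 for Nkg7, 0.126 for Gzmb and 0.125 for Ccl5.

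The comparison of HLJDD with ND gave 3 calls among the 7 genes, Nkg7, Ccl5 and Cd7, all lower in HLJDD. Lower calls made up 7.79% of all tested genes and higher calls 4.1% (percent called in either direction 11.9). This comparison shares its HLJDD libraries with one of the preceding comparisons and its ND libraries with the other, so their values are set side by side and not counted together.

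Nkg7 fell by 0.57 on the log2 scale (SE 0.12, 95% interval -0.83 to -0.31, limma adjusted p = 0.0099), from 1.56 ± 0.296 FPKM (n = 3) to 0.722 ± 0.108 (n = 4), a mean 53.8% lower. Every HLJDD library was below every ND library. Nkg7 also passed after median-ratio scaling (log2 -0.47, adjusted p = 0.0078), where 9.88% of all tested genes were called lower. Among the fits that left out 1 library, the call ended when ND replicate 1 (adjusted p = 0.0628) or ND replicate 2 (adjusted p = 0.0639) was left out. It also ended on recovered reads with at least 10 reads in 3 libraries (adjusted p = 0.0507).

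Ccl5 fell by 0.97 (SE 0.28, limma adjusted p = 0.0409), from 13.2 ± 2.33 to 6.69 ± 3.47 FPKM, although HLJDD replicate 2 at 11.6 FPKM lay inside the ND range. Without HLJDD replicate 2 the difference was -1.24 (adjusted p = 0.0036). Cd7 fell by 0.71 (SE 0.21, limma adjusted p = 0.0447), from 3.86 ± 0.775 to 2.02 ± 0.795 FPKM, with separate groups. Both calls were lost after median-ratio scaling, at adjusted p = 0.148 for Ccl5 and 0.115 for Cd7. Cd7 did not pass with a pseudocount of 0.1 (adjusted p = 0.0567) or with limma-voom on recovered reads (0.0682). Both also failed when 1 library was left out, namely ND replicate 1 (adjusted p 0.163 and 0.181), ND replicate 2 (0.153 and 0.177), HFD replicate 2 (0.0516 and 0.0520), HFD replicate 3 (0.0579 and 0.0663), HLJDD replicate 1 (0.0959 and 0.0951) or HLJDD replicate 4 (0.105 and 0.101). Ccl5 alone lost its call without HLJDD replicate 3 (0.0582), and Cd7 alone without HFD replicate 4 (0.0549).

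Gzma had the largest difference of the 7 on the log2(FPKM + 1) scale but did not pass, with 5.39 ± 3.22 FPKM in HLJDD and 11.2 ± 1.10 in ND (log2 -1.09, SE 0.35, limma adjusted p = 0.0646). Its groups did not overlap. Without HLJDD replicate 3, whose Gzma level was the highest of its group, the difference was -1.38 and passed (adjusted p = 0.0131). Without HLJDD replicate 4, the lowest, it was -0.73 (adjusted p = 0.113), with the Cd79a term -0.84 (0.306) and with the smooth muscle term -0.60 (0.368). Gzmb, Cd3g and Cd8a had log2 differences of -0.63, -0.50 and -0.32, with adjusted p = 0.113, 0.152 and 0.144.

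All 7 log2 differences were below 0, where 66.2% of those over all tested genes were, and all 7 had an unadjusted p under 0.05, where 28.8% did. Groups did not overlap for 3 of the 9, Gzma, Nkg7 and Cd7, against 21.3% of tested genes in the lower direction. After scaling they did not overlap for Gzma and Nkg7, against 18.9%. The median of the 7 was -0.63, beside -0.13 over all tested genes, and -0.51 after scaling. The 6 smooth muscle genes had a median of -0.99 in the same comparison, with 5 of 6 at an unadjusted p under 0.05 and 0 past the adjusted threshold. When the level of the B cell gene Cd79a was added as a term, Nkg7 passed (adjusted p = 0.0375) and Ccl5 and Cd7 did not (0.289 and 0.219). With the mean of 6 smooth muscle genes as a term the adjusted p was 0.0358 for Nkg7, 0.0757 for Ccl5 and 0.149 for Cd7.

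**Figure D3:**
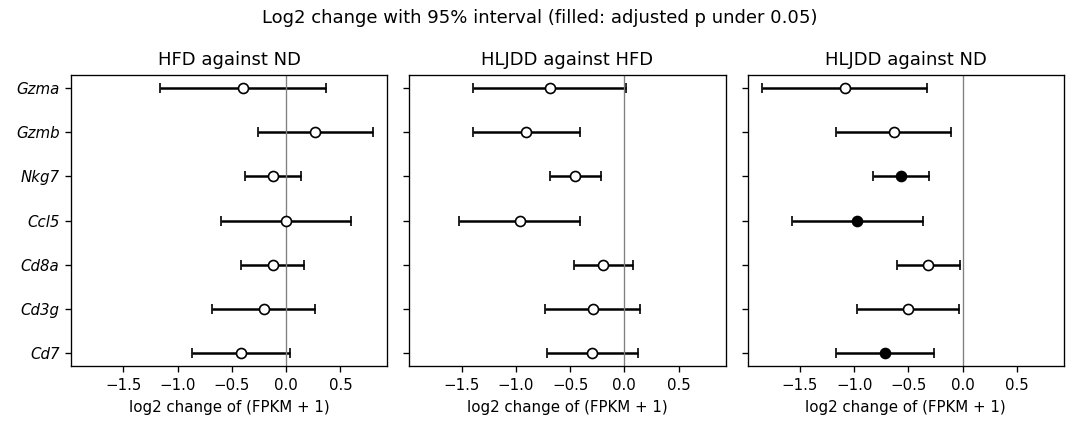
Log2 difference of (FPKM + 1) with its 95% interval (horizontal axis) for the 7 tested genes in each of the 3 comparisons. Filled points have a limma adjusted p under 0.05. They are Nkg7 at -0.57, Ccl5 at -0.97 and Cd7 at -0.71, all in HLJDD against ND.

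Each gene was also set against the receptor chains of its own library. The measure was log2(FPKM + 1) of the gene less the mean of the same for Cd3e and Cd3g, compared between groups by an exact two-sided permutation test. With levels near or under 1 FPKM, as for Cd3e, Cd8a, Itgae and Nkg7, the value still moves with the pseudocount and the scaling. With 3 against 4 or 4 against 4 libraries the smallest p is 0.0286. In 21 tests (7 genes in 3 comparisons) none passed after adjustment, and the lowest adjusted p was 0.3. A gene alone at the smallest p could not pass an adjustment over 21 tests. The lack of passes therefore does not show that the ratios were alike.

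Gzmb was the gene whose ratio separated groups. Its log2 ratio was 0.23, 0.34 and 0.09 in ND replicates 1 to 3, 0.85, 0.69, 0.64 and 0.55 in the HFD libraries, and 0.08, 0.47, -0.10 and -0.48 in the HLJDD libraries. All HFD libraries were above all others. The HFD mean was 0.46 above ND (exact permutation p = 0.0286, adjusted p = 0.3) and the HLJDD mean 0.69 below HFD, a difference of -0.69 (exact permutation p = 0.0286, adjusted p = 0.3). HLJDD differed from ND by -0.23 (exact permutation p = 0.4, adjusted p = 0.76).

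The ratio of Ccl5 averaged 1.76 ± 0.643 in HLJDD (n = 4) and 2.51 ± 0.432 in HFD (n = 4), a difference of -0.75 (exact permutation p = 0.0857, adjusted p = 0.45). HLJDD replicate 2 had a Ccl5 ratio of 2.69 and the other HLJDD libraries 1.59, 1.54 and 1.21. The ratios of Cd8a and Itgae differed between HLJDD and HFD by 0.02 and 0.04 (exact permutation p = 0.857 and 0.8). This does not show that they moved with the receptor chains. With a pseudocount of 0.1 the differences were -0.0299 and -0.160.

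**Figure D4:**
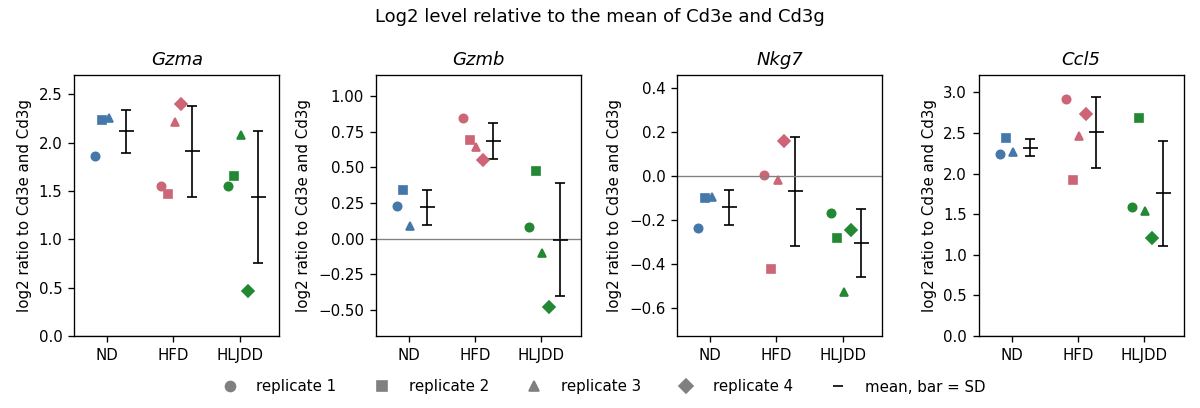
Log2 level of Gzma, Gzmb, Nkg7 and Ccl5 relative to the mean of Cd3e and Cd3g (vertical axis) in every library. Symbols are replicates, and the dash and bar are the group mean and SD. For Gzmb the 4 HFD libraries lie between 0.55 and 0.85, above the 0.47 of the highest HLJDD library.

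Further genes of T cell receptor signalling, killing and residence came from lists chosen with earlier results of these data known. Of 22 genes of the T cell receptor complex and its proximal signalling, 8 reached the filter, and 0 passed in any comparison. Their median log2 difference was 0.44 in HFD against ND, 0.35 in HLJDD against ND and -0.19 in HLJDD against HFD. Ptprc, the leukocyte phosphatase CD45, illustrates the spread at 1.22 to 14.0 FPKM within HFD. Of 22 further genes of granules and killing, 5 reached the filter and 0 passed. The most abundant was Tnfsf10, which encodes the death ligand TRAIL, at 11.9 ± 1.16 FPKM in ND, 8.60 ± 1.88 in HFD and 8.18 ± 2.66 in HLJDD. Its adjusted p was 0.202 for HFD against ND and 0.169 for HLJDD against ND.

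Of 30 surface and regulator genes of intraepithelial lymphocytes with a row, 15 reached the filter. In HFD against ND, 2 rose and 2 fell, 4 of 15 where 16.6% of all tested genes were called. Fcer1g, a signalling adaptor, rose by 0.71 (adjusted p = 0.0219), and Hopx, a homeodomain cofactor of cytotoxic and tissue-resident T cells that epithelium also expresses, rose by 0.71 (adjusted p = 0.0363). Sox13, a transcription factor of gamma-delta T cells, fell by 0.60 (adjusted p = 0.0277). Its level ran from 20.9 to 22.4 FPKM in ND, where Cd3g ran from 2.82 to 4.41. Which cell types gave the Sox13 reads was not tested. Itga2, an integrin collagen receptor chain, fell by 0.84 (adjusted p = 0.0313). In HLJDD against ND, 0 rose and 2 fell, where 11.9% of all tested genes were called, Sox13 by 0.62 and Itga2 by 0.85 (adjusted p = 0.0286 and 0.0356). After scaling, HFD against ND had 4 rises and 2 falls, and HLJDD against ND had 2 of each. Leaving out ND replicate 1 ended the calls of these 4 genes, as did several other fits.

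Among epithelial ligands and niche signals of these cells, a few genes passed between ND and each of the other groups, at a share of the list near that of all tested genes. Il15 encodes the cytokine that maintains intraepithelial CD8 T cells. It stood at 6.18, 6.19 and 6.40 FPKM in ND, at 20.1, 14.1, 14.4 and 14.9 in HFD, and at 11.7, 11.8, 10.8 and 13.4 in HLJDD. The 3 groups did not overlap in any pairing. Il15 rose by 1.20 in HFD against ND (SE 0.14, limma adjusted p = 0.00039) and by 0.83 in HLJDD against ND (adjusted p = 0.0031), and kept both calls in every alternative fit run. Between HLJDD and HFD its difference was -0.37 (adjusted p = 0.999).

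Il7, the cytokine that supports gamma-delta intraepithelial cells, was at 1.87, 1.41 and 1.12 FPKM in ND, at 0.210, 0.858, 0.354 and 0.217 in HFD, and at 0.376, 0.370, 0.573 and 0.181 in HLJDD. All ND libraries were above all others. Il7 fell by 0.82 in HFD against ND (limma adjusted p = 0.0090) and by 0.84 in HLJDD against ND (adjusted p = 0.0099). Both calls were lost without ND replicate 1, and the second also with the smooth muscle term. Of 21 genes of this list with a row, which include the Btnl genes, Cdh1 and nonclassical class I genes, 17 reached the filter. The calls were 1 higher and 1 lower for HFD against ND, 1 higher and 2 lower for HLJDD against ND, and 0 for HLJDD against HFD. The 2 of 17 and 3 of 17 stand beside 16.6% and 11.9% of all tested genes, so the list as a whole did not stand out by its count. The second that fell was Hnf4g, an enterocyte transcription factor gene, by 0.81 (adjusted p = 0.0273). That call was lost without ND replicate 1, ND replicate 2 or HLJDD replicate 4, with no filter, with equal sums, with only the 2 groups, and with the smooth muscle term, at adjusted p up to 0.171.

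Of 18 chemokine and chemokine receptor genes with a row, 8 reached the filter. Of these 8, 2 rose and 2 fell in HFD against ND, where 16.6% of all tested genes were called. In HLJDD against ND, 1 rose and 2 fell, where 11.9% were called. The list was chosen with earlier results of these data known, so the counts are a description. Cxcl16, the ligand of Cxcr6 on resident T cells, rose by 0.51 in HFD against ND and by 0.67 in HLJDD against ND (limma adjusted p = 0.0266 and 0.0084). The other chemokine gene that rose in HFD against ND was Xcl1, by 0.68 (adjusted p = 0.0252), which is named after its value was seen. A pair of ligands of Cxcr3, a receptor of cytotoxic and helper T cells, were lower. Cxcl10 fell by 1.08 in HFD against ND and by 1.30 in HLJDD against ND (adjusted p = 0.0127 and 0.0061). Cxcl9 fell by 0.83 in HLJDD against ND (adjusted p = 0.0244), and its difference in HFD against ND was -0.58 (adjusted p = 0.0727). Ccl28, an epithelial chemokine, fell by 1.26 in HFD against ND (adjusted p = 0.0114). No gene of this list passed in HLJDD against HFD. The calls of Cxcl10 and Ccl28 in HFD against ND were lost without ND replicate 2 and with the Cd79a term. Cxcl16 there was lost without any 1 of the ND libraries, without HFD replicate 1 or 3, with equal sums and with the Cd79a term, at adjusted p up to 0.148. In HLJDD against ND, Cxcl16 was lost without ND replicate 1 (0.0504) and with the Cd79a term. Cxcl10 was lost there with the Cd79a and smooth muscle terms, and Cxcl9 lost its call without ND replicate 1 or 2 or without HLJDD replicate 1 or 4.

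**Figure D5:**
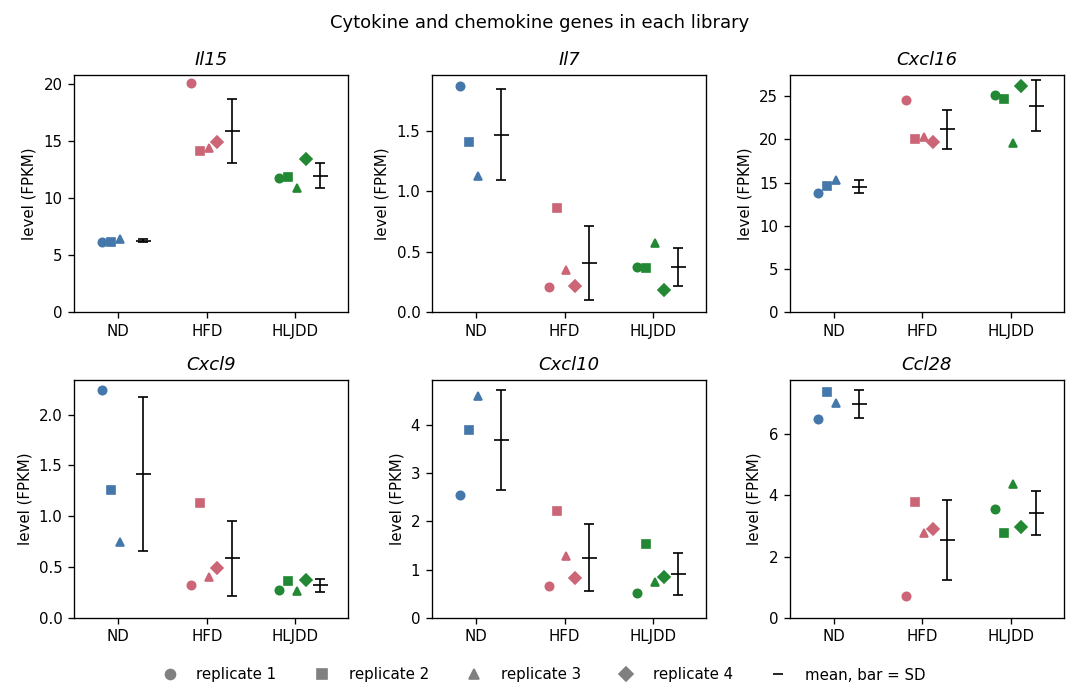
Level of 6 cytokine and chemokine genes (vertical axis, FPKM, starting at 0) in every library. Symbols are replicates, and the dash and bar are the group mean and SD. Il15 lies between 6.18 and 6.40 FPKM in ND, 14.1 and 20.1 in HFD and 10.8 and 13.4 in HLJDD.

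Lists of other cell types were read in the same fit. Among 10 B cell genes, Blnk rose by 0.93 in HFD against ND and by 1.01 in HLJDD against ND (limma adjusted p = 0.0113 and 0.0090), and no other passed. All 10 had an unadjusted p under 0.05 in both, as 36.7% and 28.8% of all tested genes did. Their median log2 differences were 2.12 and 2.15. Blnk did not follow the rest in HFD replicate 4, where it was at 11.4 FPKM of a B cell sum of 13.2. Both Blnk calls were lost without ND replicate 1 (0.0684 and 0.0585) and with the Cd79a term (up to 0.147 and 0.121). Of 17 genes of helper, regulatory and follicular T cells, 2 reached the filter and 0 passed. Among 4 plasma cell genes above the filter, Mzb1 and Tnfrsf13b rose in HFD against ND, by 1.88 and 1.47 (adjusted p = 0.0334 and 0.0432). Both calls were lost when any 1 of the ND libraries or HFD replicate 1, 2 or 3 was left out, and on recovered reads, at adjusted p up to 0.364 for Mzb1 and 0.468 for Tnfrsf13b. Tnfrsf13b was also lost without HLJDD replicate 1, 3 or 4. No gene of the macrophage, smooth muscle, epithelial or leukocyte lists passed in any comparison.

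The genes whose pattern over the 11 libraries was most like the mean of the 9, each standardized over the libraries, were Cxcl14 (Pearson r 0.932), Ptgs1 (0.927), Pdgfra (0.919), Zfp938 (0.911), Nrep (0.910), Sts (0.903), Gpx8 (0.896), Tnc (0.892), Hoxb2 (0.878) and Foxf1 (0.877). The mean of the 9 was itself lowest in the HLJDD libraries, and the genes were picked for likeness to it. That all 10 had their lowest group mean in HLJDD follows largely from this choice and is not a separate result. Cxcl14, for example, averaged 2.23 FPKM in ND, 1.74 in HFD and 0.919 in HLJDD. The libraries share depth and tissue composition across these genes, and the values are a description.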

How the data were processed

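The labels' protocols name TRIzol for the extraction of total RNA and a VAHTS Universal V6 kit. The submitters' processing notes name fastp, HISAT2, HTSeq and R 3.2.0 with mm10, per the labels. Annotation, strand setting and further versions: not given in the sources used here. Values were deposited by the authors as FPKM, 24294 symbols by 11 libraries. Libraries were grouped by their titles.

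From the steps between FPKM values, whole reads were recovered for 24294 of 24294 symbols (100%, each within 0.0070 reads of a whole number). Totals ran from 30101890 to 37943275 reads a library, so a gene of 1 kb at 1 FPKM rests on 30.1 to 37.9 reads.

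Values were tested as log2(FPKM + 1) with limma 3.58.1 in R 4.3.3 (variance trend, all 11 libraries, two-sided), over the 10764 genes that reached 1 FPKM in 3 or more libraries. P-values were adjusted over all of them by Benjamini-Hochberg, with a threshold of 0.05. Ratios to Cd3e and Cd3g were compared by exact permutation. On data simulated for HLJDD against HFD with 10764 genes, limma recovered 79% of genes changed by 1 and 97% of those changed by 2 on the log2 scale, and 5.88% of its calls were false. The simulated noise was normal and independent from gene to gene, whereas the real libraries share depth and composition across genes. These rates therefore do not tell how many real changes the comparison could have found.

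The members and lists were chosen with earlier results of these data known. Genes named are the members, up to 4 genes of each list with the smallest adjusted p, or the 2 most abundant where none passed, a few fixed T cell genes, and the 10 most like the members' mean. Alternatives were a pseudocount of 0.1, other filters and scalings, limma-voom on recovered reads, robust variances, 2 groups only, the replicate number as a block, and leaving out libraries. Reads of at least 10 as the filter, Cd79a and smooth muscle terms were added after the data were seen. Pairing by replicate number was checked as the correlation of deviations from group means. Gene positions are from RefSeq, GRCm38.p6. One gene that the naming rule selects is not reported here.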

Additional observations from a re-analysis of the deposited data

Results flagged for a closer look

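None of the 9 genes held a library that stood apart from the rest of its group of 4, in 18 groups tested. Of 80 groups of 4 libraries tested for the other genes reported, 7 held one, and chance alone marks about 1 in 20. In HFD replicate 1, Cxcl16 (24.5 FPKM), Il15 (20.1 FPKM) and Blnk (14.0 FPKM) lay above the rest of the HFD group. In HFD replicate 4, Cd3d (0.461 FPKM) lay below it. In HLJDD replicate 2, Cxcr5 (0.0126 FPKM), Tnfrsf13b (0.439 FPKM) and Krt8 (1209 FPKM) lay below the rest of the HLJDD group. HFD replicate 1 and HLJDD replicate 2 are the libraries with the highest mitochondrial share, at 32.4% and 40.7%.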

How the results depend on the processing

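The count of the 9 genes called in HLJDD against ND was 3. It was 2 with a pseudocount of 0.1 or limma-voom on recovered reads. It was 1 with no filter on low values, a mean of at least 5 FPKM, median-ratio scaling, quantile normalization, only the 2 groups compared, recovered reads of at least 10, the Cd79a term or the smooth muscle term. It was 0 with the replicate number as a block, and 0 to 3 when 1 library was left out. HFD against ND and HLJDD against HFD gave 0 in every fit run. Ccl5 in HFD against ND, near 0, changed sign to 0.23 with median-ratio scaling, 0.18 with quantile normalization, 0.11 with the replicate block and 0.31 with the Cd79a term, and ran from -0.148 to 0.0695 when 1 library was left out. Nkg7 there became 0.0292 with median-ratio scaling and 0.0180 with quantile normalization. No call rested on these signs, and the cause was not tested.

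Ratios to Cd3e and Cd3g in HLJDD against HFD changed sign for Cd8a (-0.0299 with a pseudocount of 0.1, -0.0474 without the 2 libraries of highest mitochondrial share) and Itgae (-0.160 and -0.0185). When 1 library was left out, Cd8a ran from -0.0735 to 0.127, Itgae from -0.0925 to 0.149 and Cd7 from -0.283 to 0.0717. In HFD against ND, Cd8a ran from -0.00112 to 0.165 and Nkg7 from -0.00168 to 0.192. No ratio passed in any setting, but these fits could hardly have given a pass. The adjustment is large for the smallest p that can be reached, and leaving out libraries does not lower that p.

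The replicate numbers did not pair the libraries. Same-numbered deviations correlated at -0.09, 0.04 and -0.05 for HFD with ND, at -0.18, 0.16, 0.14 and 0.37 for HLJDD with HFD, and at -0.03, -0.01 and -0.22 for HLJDD with ND. With the replicate block, adjusted p was 0.0550 for Nkg7, 0.0908 for Ccl5 and 0.133 for Cd7 in HLJDD against ND. Depth limits Cd3e and Nkg7 most, with as few as 10 and 15 reads in a library.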
